A study of Homo sapiens with 8 samples.

Results

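These data compare lung-metastatic human breast cancer cells carrying a short hairpin RNA against TAF7 with the same cells carrying a control hairpin. Sequencing libraries made from enriched mRNA were used, 4 in number, 2 with the control hairpin and 2 with the TAF7 hairpin (shTAF7), out of 8 libraries in the series. The other 4 come from the parental line MDA-MB-231 with the same hairpins. They enter the same fit, and so the filter, the scaling and the error estimates. They also serve to test where the knockdown effect differed between the lines, and parental control levels are given for some genes. All genes that passed a filter on low counts were taken, which was 15923 of 61552 genes in the count table.

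MDA-MB-231 is an established line of basal-type breast cancer that lacks oestrogen and progesterone receptors. LM2 is a derivative of it that was selected in mice for growth in the lung. The labels call the control cells of both lines wild type and the others TAF7 knockdown. Cells were grown in DMEM with 10% serum. Titles carry the same hairpin number for all knockdown libraries, so that the knockdown rests on 1 hairpin. Whether clones or pools of cells were used is not stated. Nothing in the labels places the 2 libraries of any group in separate cultures, so p-values here measure only the spread between these libraries.

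TAF7 is a subunit of TFIID, the complex that binds core promoters and nucleates assembly of RNA polymerase II with its general transcription factors. TAF7 binds TAF1, the largest subunit, and is known to restrain enzymatic activity of TAF1 until the polymerase has been recruited. Breast cancer cells of this kind often make inflammatory cytokines under the control of NF-kB, a family of dimeric transcription factors held inactive by IkB inhibitors. They also use ATF4, the transcription factor of the integrated stress response that drives amino acid synthesis and transport. SREBP transcription factors drive cholesterol and fatty acid synthesis, and E2F factors drive genes for DNA replication. The question that the comparison addresses is which transcripts differ between the TAF7 hairpin and the control hairpin in the metastatic derivative.

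The control libraries held 17633474 and 17295627 counts and the shTAF7 libraries 18682954 and 20285659. At that depth 1 count was worth 0.0528 to 0.0558 CPM (counts scaled to a common library size with the trimmed mean of M values, TMM). The control libraries stood apart from all other libraries of the series in that 24762 and 24490 genes had at least 1 count, against 22982 and 23047 in shTAF7 and 22296 to 23434 in the parental libraries. Long intergenic and antisense RNAs took 0.72% and 0.697% of their counts against 0.58% and 0.558% in shTAF7. These are the whole control group, so no comparison could be made without both of them, and the part of this difference in the results below was not tested. In bulk RNA, fewer cells of a type and less RNA per cell cannot be told apart.

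Markers of other cell types were low or did not follow a common direction. Of 10 leukocyte markers 1 had enough counts to be tested, with a summed level of 0.936 and 1.67 CPM in the control and 1.12 and 0.845 CPM in shTAF7. Of 9 fibroblast markers 3 were tested and 2 were lower (28.4 and 33.5 against 17.8 and 16 CPM in sum), and of 7 endothelial markers 4 were tested and 1 was lower (94.6 and 99.1 against 102 and 108 CPM). Basal-type markers that define the line, such as VIM, CD44, EGFR and CAV1, were high (2779 and 2681 against 3601 and 3867 CPM in sum), whereas the oestrogen and progesterone receptor genes and the keratins KRT5, KRT14 and KRT17 had too few counts to be tested. Luminal markers were tested for 7 of 10, of which 4 were higher and 1 lower (686 and 681 against 929 and 1068 CPM).

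TAF7 (ENSG00000178913) had 195 and 197 CPM in the control libraries and 142 and 148 CPM in the shTAF7 libraries. Both shTAF7 libraries lay below both control libraries, at 74.2% of the control mean (log2 fold change -0.43 ± 0.07, edgeR adjusted p = 8.4e-07). Per length, the mean was 67 FPKM (fragments scaled to gene length and depth) in the control and 45.4 FPKM in shTAF7. TAF1, to which TAF7 binds, had 20.3 and 22.5 CPM in the control libraries and 15.2 and 14.5 CPM in the shTAF7 libraries, and the groups did not overlap (log2 fold change -0.53 ± 0.11, edgeR adjusted p = 7.4e-05). TAF9B, a paralogue of the histone-fold subunit TAF9, rose (0.32 ± 0.08), while the TATA-binding protein TBP was at -0.13 ± 0.11 and was not called. The rise of TAF6 (0.29 ± 0.08) was lost when control replicate 2 was left out (0.22, edgeR adjusted p = 0.0955), and that of TAF9 (0.25 ± 0.07) when control replicate 3 was left out (0.16, edgeR adjusted p = 0.146). TAF4 (0.22 ± 0.08) was called neither without control replicate 2 or 3 nor without shTAF7 replicate 2 (0.22, edgeR adjusted p = 0.0868 without control replicate 2, and 0.23, edgeR adjusted p = 0.0611 without control replicate 3, and 0.17, edgeR adjusted p = 0.127 without shTAF7 replicate 2). Of the 16 TFIID subunits 4 rose, 2 fell and 10 were not called, with a median of 0.11 that turned to -0.02 when libraries were scaled by their totals only, and 1 of the 4 was called higher without each LM2 library in turn. Over all genes tested 21.8% rose and 19.4% fell.

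The knockdown went with a change in a large part of the measured transcriptome. At an edgeR adjusted p under 0.05, 6570 of 15923 genes were called, which is 41.3%, of which 3478 were higher (21.8%) and 3092 lower (19.4%). The sizes were unequal between the directions: 120 genes rose at least 2-fold (0.754%) and 844 fell at least 2-fold (5.3%), and at 4-fold the counts were 15 and 236. By mean level in LM2, 36 of the 120 and 340 of the 844 lay below 1 CPM, where a gene could pass the filter through 1 group. A further 62 and 385 lay between 1 and 10 CPM. From 10 to 100 CPM the counts were 16 and 98, and at 100 CPM and above 6 and 21. Among called genes the median log2 change was 0.38 upward and -0.59 downward. The 2 groups did not overlap for 11047 genes, or 69.4%. Leaving out each of the 4 LM2 libraries in turn, 2137 genes were called higher and 1490 lower every time. With library totals in place of TMM the median of all genes moved from -0.016 to -0.143 and the share of calls that were higher from 52.9% to 30.9%, so the balance of directions depends on the scaling. Log2 fold changes below are given ± SE of the edgeR fit with n = 2 libraries a group, against the median of -0.016.

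Direction followed the level of expression. Of the 2260 genes averaging 100 CPM or more, 52.6% were called higher and 13.7% lower, while of 4070 genes between 1 and 10 CPM 7.47% were called higher and 21.8% lower. The median log2 fold change went from -0.39 below 1 CPM to 0.19 at 100 CPM and above. A gene below 1 CPM could pass the filter through 1 group: of these 2471 genes, 757 had at least 10 counts in both control libraries but not in both shTAF7 libraries, and 280 the reverse. For the 1099 of them with at least 10 counts in both MDA-MB-231 control libraries, a condition chosen after seeing the data that does not use LM2, the median was -0.36. Among gene types, protein-coding genes were called higher in 25.6% and lower in 20.5%, whereas long intergenic RNAs were called higher in 4.62% and lower in 19.4%. Antisense RNAs were close to the latter, with 3.74% and 15.1%. Processed pseudogenes went the other way, with 15.2% higher and 3.35% lower, and their reads can come from the parent genes. Within the range of 1 to 10 CPM, the medians of protein-coding genes, long intergenic RNAs and antisense RNAs were alike at -0.18, -0.23 and -0.24, while that of processed pseudogenes was 0.32. With genes split into 4 classes of 3506 by length, the class of shortest genes had 903 calls higher and 386 lower, and that of the longest genes 635 and 1007. The control libraries, which had more genes detected, are the reference for all of these splits. No source used here gives a strand setting, so reads of antisense RNAs and of the genes they overlap cannot be told apart.

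**Figure D1:**
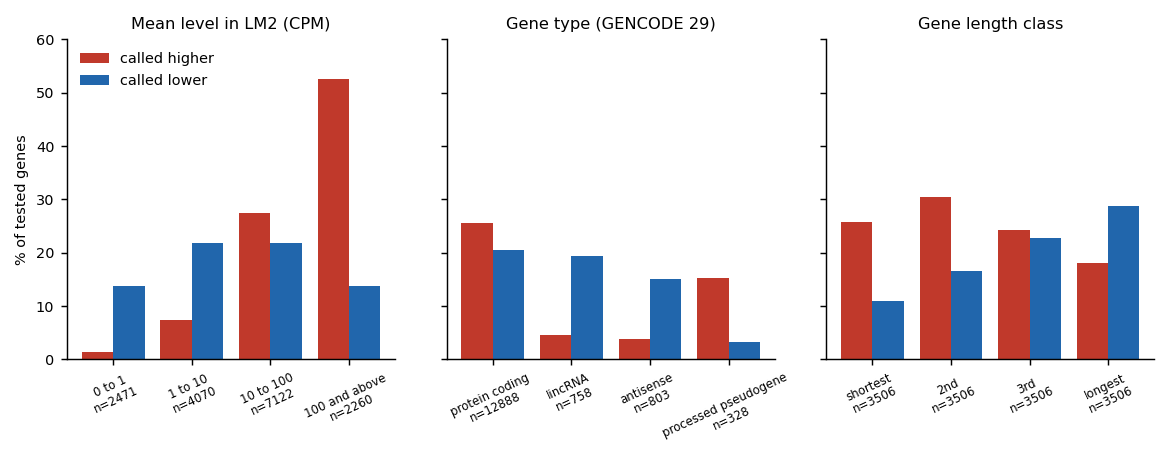
Percentage of tested genes called higher (red) or lower (blue) in LM2 shTAF7 against control, by mean CPM of the 4 LM2 libraries (left), by gene type (middle) and by gene length in 4 classes (right), with the number of genes under each class. The share called higher grows with the level, from 1.46% below 1 CPM to 52.6% at 100 CPM and above.

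The gene lists that follow are described by their counts and medians against these backgrounds. Over all genes tested 21.8% were called higher and 19.4% lower, and counts near these shares say little about a list's members. Lists with the lowest medians were those of NF-kB cytokines (-2.38), complement and acute-phase genes (-0.81), histones (-0.62), NF-kB subunits and inhibitors (-0.54), interferon-stimulated genes (-0.48) and the ATF4 response (-0.42). At the other end stood cholesterol synthesis (0.50), DNA replication (0.41), heat shock proteins (0.35), splicing factors (0.34), ribosomal proteins (0.33) and nuclear respiratory chain subunits (0.32). Counting only members called without each LM2 library in turn, 17 cytokines, 11 NF-kB subunits and inhibitors, 21 interferon-stimulated genes, 29 ATF4 genes, 7 MHC class I genes and 4 histones were lower. Counted in this way, 21 cholesterol, 38 replication, 7 heat shock, 17 splicing, 46 ribosomal protein and 20 respiratory chain genes were higher.

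**Figure D2:**
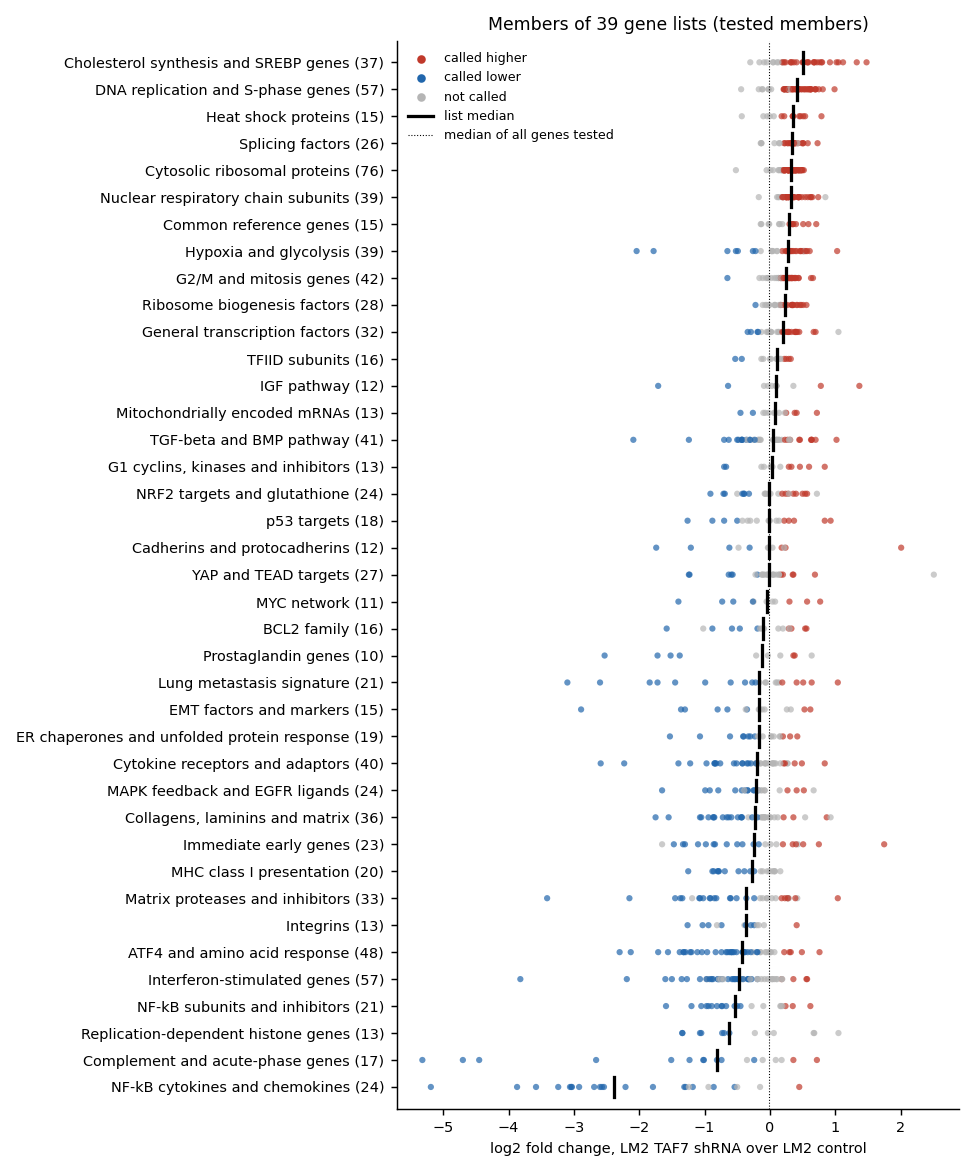
Log2 fold change of each tested member of 39 gene lists in LM2 shTAF7 over LM2 control, with members called higher in red, called lower in blue and not called in grey, the list median as a black bar and the median of all genes tested as a dotted line. The NF-kB cytokines spread furthest to the left, and no member of the 7 topmost lists is called lower.

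The list of cytokine and chemokine genes, named for NF-kB, had the lowest median of the 39 lists. Control of its members by NF-kB was not measured here. To show what the promoters of this list hold, stretches just before the start site are given for 3 of its genes, and for the inhibitor gene TNFAIP3, in which an NF-kB type match was found (RefSeq, GRCh38.p14, 5′ to 3′ on the gene's strand). Capitals mark the match to GGANTTTCC or its reverse complement GGAAANTCC.
CXCL8 (chr4:73740448-73740537, plus strand): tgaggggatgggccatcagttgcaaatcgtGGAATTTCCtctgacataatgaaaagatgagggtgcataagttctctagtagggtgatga
IL6 (chr7:22727098-22727187, plus strand): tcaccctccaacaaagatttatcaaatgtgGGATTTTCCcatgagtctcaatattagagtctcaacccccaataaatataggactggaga
CXCL1 (chr4:73869285-73869374, plus strand): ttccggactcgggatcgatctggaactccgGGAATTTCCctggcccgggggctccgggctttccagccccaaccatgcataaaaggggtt
TNFAIP3 (chr6:137867162-137867251, plus strand): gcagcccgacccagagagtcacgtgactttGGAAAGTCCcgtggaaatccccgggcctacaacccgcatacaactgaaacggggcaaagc
The matches begin 91, 72, 78 and 67 bases before the start site. For 17 genes of the cytokine list 20 promoter windows were found (250 bases before to 50 after the start, either strand), and 8 held such a match, or 40%. Of the 32 windows of 18 genes for NF-kB subunits and inhibitors 11 did, or 34.4%. Over all 16222 windows of 11189 tested genes the share was 1.66%, with 1.46% for genes called higher, 2.42% for genes called lower and 3.59% for genes that fell at least 2-fold. For IL1A, IL1B, CCL20, CSF2, BIRC3, PTGS2 and VCAM1 only the 250 bases before the start were searched gene by gene, and these held no match. Other letters were also frequent in the 20 cytokine windows. The AP-1 type TGAGTCA was in 30% of them, against 3.78% of all windows. The interferon type TTCNNTTT was in 40%, against 16.9% of all windows. Median GC content was 53.5%, against 64.7% in all windows. A match describes letters in this window and is not a measured binding site.

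Of 35 listed cytokines and chemokines, 24 passed the filter on low counts, and of these 19 fell, 1 rose and 4 were not called. CXCL8, which encodes the neutrophil chemokine interleukin-8, had 679.8 and 610.3 CPM in the control libraries and 79.5 and 78.5 CPM in the shTAF7 libraries. Both shTAF7 libraries were at about the same low level, and the groups lay far apart (log2 fold change -3.03 ± 0.07, edgeR adjusted p = 1.8e-34). Its relatives on the same receptor followed, each without overlap between the groups. CXCL1 had 77.9 and 78.1 CPM in the control libraries and 13.7 and 12.1 CPM in the shTAF7 libraries (-2.60 ± 0.10). For CXCL2 the values were 89.9 and 87.5 CPM against 14.4 and 15.5 CPM (-2.57 ± 0.10), and for CXCL3 65.8 and 58.7 CPM against 12.9 and 14 CPM (-2.21 ± 0.10). Thus all 4 tested neutrophil chemokines fell, and 2 others, CXCL5 and CXCL6, had too few counts to be tested. CCL20, which attracts lymphocytes and dendritic cells through CCR6, went from 15.1 and 14.2 CPM to 1.12 and 1.95 CPM (log2 fold change -3.24 ± 0.21, edgeR adjusted p = 3.0e-17).

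IL1B, which encodes interleukin-1 beta, had 1088 and 1040 CPM in the control libraries and 139 and 141 CPM in the shTAF7 libraries. Every shTAF7 value was far below both control values (log2 fold change -2.92 ± 0.07, edgeR adjusted p = 1.8e-34), although per length it still measured 44.1 FPKM against 366 FPKM in the control. IL1A, the other interleukin-1 ligand, went from 6.77 and 6.85 CPM to 0.391 and 0.528 CPM (log2 fold change -3.87 ± 0.31, edgeR adjusted p = 1.6e-14). IL18 belongs to the same family and was the list's exception, with 114 and 96.8 CPM in the control libraries and 138 and 149 CPM in the shTAF7 libraries, so that both shTAF7 libraries lay above both controls (log2 fold change 0.45 ± 0.08, edgeR adjusted p = 6.2e-06). Of the interleukin-6 family, which signals through the shared receptor IL6ST, IL6 had 86.7 and 80.6 CPM in the control libraries and 10.2 and 10.1 CPM in the shTAF7 libraries. The groups were far apart for IL6 (log2 fold change -3.04 ± 0.10, edgeR adjusted p = 1.2e-28), and smaller decreases were seen for LIF (-1.18 ± 0.08) and IL11 (-0.54 ± 0.09), while CLCF1 was at -0.15 ± 0.10 and was not called.

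All 3 colony-stimulating factors, which drive the growth of granulocytes and macrophages, fell. CSF2 had 40.3 and 40.1 CPM in the control libraries and 5.3 and 7.08 CPM in the shTAF7 libraries (-2.69 ± 0.12). CSF3 had 270.4 and 272 CPM against 108 and 115 CPM (-1.29 ± 0.07), and CSF1 was at -1.31 ± 0.08. The groups overlapped for none of them. GDF15, a stress-induced member of the TGF-beta superfamily, had 35.8 and 37.7 CPM in the control libraries and 0.614 and 1.37 CPM in the shTAF7 libraries. That was the largest decrease on the list, to 2.7% of the control mean (log2 fold change -5.19 ± 0.18, edgeR adjusted p = 2.4e-28). IL24 went from 21.4 and 23.9 CPM to 2.79 and 2.64 CPM (log2 fold change -3.06 ± 0.17, edgeR adjusted p = 5.3e-20), and TNFSF15, a ligand of the death receptor DR3, from 3.91 and 4.68 CPM to 0.447 and 0.264 CPM (-3.58 ± 0.39). IL32 was also lower (-1.79 ± 0.24), and the decrease of IL15 (-0.86 ± 0.22) was lost without shTAF7 replicate 3 (-0.66, edgeR adjusted p = 0.0583).

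In sum the list took 2839 and 2699 CPM in the control libraries and 651 and 678 CPM in shTAF7. The parental control libraries took 641 and 648 CPM, near the sum after knockdown in LM2, but different genes made up these sums. The interleukin-1 family took 277 and 291 CPM in LM2 shTAF7 against 26 and 27.9 CPM in the parental control. Colony-stimulating factors took 140 and 150 CPM against 63.3 and 66.6 CPM, and the interleukin-6 family 101 and 104 CPM against 381 and 380 CPM. Neutrophil chemokines were closer, at 120 and 120 CPM against 148 and 149 CPM. The plot of cytokines by library shows the single genes. In the test of the difference between lines, 25.8% of all genes were called. Of the 24 cytokines, 18 had a lower fold change in LM2 than in MDA-MB-231 and 0 a higher one.

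**Figure D3:**
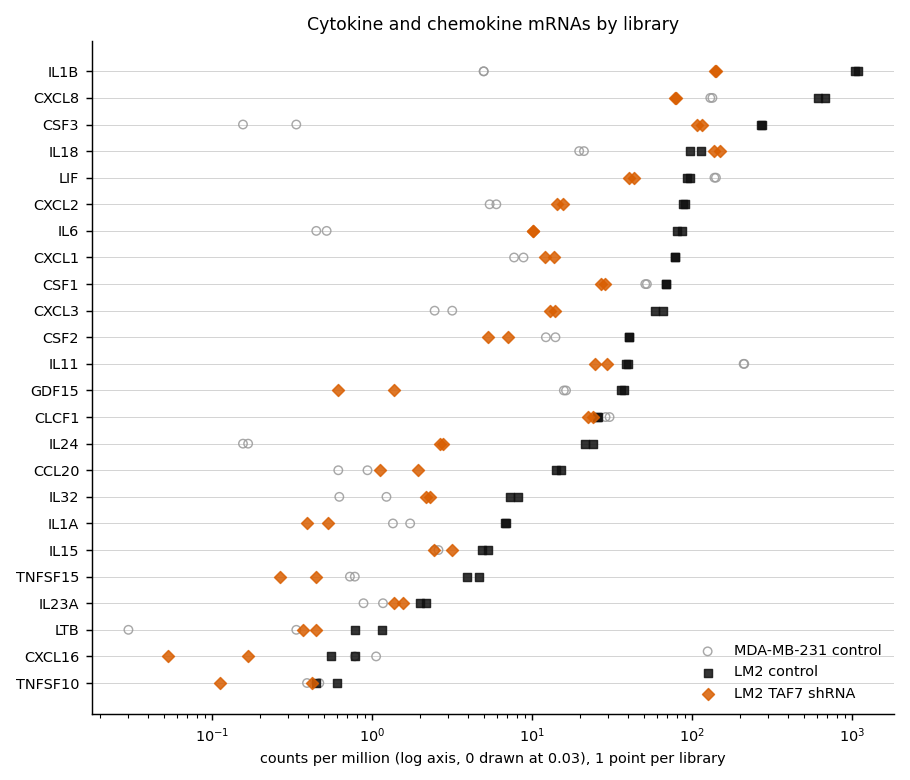
Level of the 24 tested cytokine and chemokine mRNAs in CPM on a log axis, 1 point per library, for the LM2 control (black squares), LM2 shTAF7 (orange diamonds) and the parental MDA-MB-231 control (open circles). The orange points lie left of the black squares for every gene called lower, and right of them for IL18.

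The NF-kB system itself also had lower mRNA levels of most of its parts. Of its 5 subunits 4 fell: RELB went from 47 and 42.6 CPM to 19.3 and 19.7 CPM (log2 fold change -1.20 ± 0.09, edgeR adjusted p = 1.3e-14), and NFKB2 (-0.89 ± 0.07) and NFKB1 (-0.54 ± 0.08) also fell. The fall of REL (-0.74 ± 0.20) was lost without shTAF7 replicate 3 (-0.55, edgeR adjusted p = 0.0755). RELA, which encodes the main activating subunit p65, had 123 and 131 CPM in the control libraries and 137 and 145 CPM in the shTAF7 libraries. Both shTAF7 libraries lay above both controls, yet the gene was not called (log2 fold change 0.16 ± 0.07, edgeR adjusted p = 0.087). The inhibitors, many of which are themselves NF-kB targets, were lower for 7 of 9. TNFAIP3, which encodes the ubiquitin-editing enzyme A20, had 73.5 and 87.3 CPM in the control libraries and 27.9 and 25.4 CPM in the shTAF7 libraries. Both shTAF7 values were far below the controls (log2 fold change -1.59 ± 0.09, edgeR adjusted p = 7.5e-19). The IkB genes NFKBIZ (-1.05 ± 0.08), NFKBIE (-0.97 ± 0.11) and NFKBIA (-0.81 ± 0.09) and the A20 partner TNIP1 (-0.73 ± 0.07) fell as well. Among 7 kinases 2 rose and 2 fell, with IKBKE lower (-0.94 ± 0.14) and its relative TBK1 higher (0.35 ± 0.07). The list as a whole had 13 of 21 genes lower, 3 higher and a median of -0.54, and in 11 the fold change was lower in LM2 than in MDA-MB-231 and in 1 higher.

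Receptors and adaptors that feed into NF-kB were mixed. Of 22 tested receptors 12 fell and 2 rose, and of 18 adaptors 7 fell and 3 rose, with a list median of -0.20. TNFRSF9, the costimulatory receptor 4-1BB, was the lowest (-2.59 ± 0.30). TRAF1, an adaptor of TNF receptors, had 8.75 and 8.92 CPM in the control libraries and 1.73 and 2.01 CPM in the shTAF7 libraries, and the groups did not overlap (log2 fold change -2.23 ± 0.20, edgeR adjusted p = 6.6e-13). BIRC3, a ubiquitin ligase of the same complexes, had 167 and 164 CPM in the control libraries and 74.7 and 66.8 CPM in the shTAF7 libraries and was lower in both shTAF7 libraries (-1.22 ± 0.07). IRAK2, a kinase of interleukin-1 signalling, fell (-1.40 ± 0.10), and the receptor IL1R1 was at -0.97 ± 0.21. IL6ST, the shared receptor of the interleukin-6 family, was lower too (-0.84 ± 0.07). The exceptions were the death receptor FAS (0.84 ± 0.14) and the main TNF receptor TNFRSF1A (0.49 ± 0.07), both of which rose.

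Complement and acute-phase genes held some of the largest decreases. C3, the central complement component, had 109 and 123 CPM in the control libraries and 5.41 and 5.23 CPM in the shTAF7 libraries. The shTAF7 libraries retained 4.59% of the control mean (log2 fold change -4.45 ± 0.11, edgeR adjusted p = 3.0e-34). C1S, a protease of the classical pathway, fell strongly as well (-2.66 ± 0.27), and so did C1R, its partner (-1.01 ± 0.14). Regulators were not lower as a group, with 2 of 4 higher and 1 lower, among them CLU, which encodes clusterin (0.72 ± 0.10), and CD59, which blocks the terminal complex (0.36 ± 0.07). All 6 tested acute-phase genes fell. SAA1, which encodes serum amyloid A, had 65.3 and 63 CPM in the control libraries and 2.29 and 2.64 CPM in the shTAF7 libraries (log2 fold change -4.70 ± 0.13, edgeR adjusted p = 1.4e-31), and its near-identical neighbour SAA2 had 7.38 and 6.13 CPM in the control libraries and 0.223 and 0.106 CPM in the shTAF7 libraries (-5.32 ± 0.44). Reads of these copies can be shared, so the split between them is uncertain, but both were below the controls in both shTAF7 libraries. PTX3, a long pentraxin, fell from 328 and 302 CPM to 111 and 110.1 CPM (-1.51 ± 0.07), and SERPINA1, which encodes alpha-1 antitrypsin, was at -1.23 ± 0.14. Over 17 tested genes 11 fell, 2 rose and the median was -0.81.

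The inducible enzymes of prostaglandin E2 synthesis fell together. PTGS2, which encodes cyclooxygenase-2, had 269.6 and 249 CPM in the control libraries and 80.7 and 76.6 CPM in the shTAF7 libraries (log2 fold change -1.72 ± 0.07, edgeR adjusted p = 8.9e-25). PTGES, which encodes the inducible synthase that acts after it, had 48.4 and 50.5 CPM in the control libraries and 16.9 and 17.5 CPM in the shTAF7 libraries, and for both enzymes the groups were clearly apart (-1.52 ± 0.09). The constitutive synthases PTGES2 (0.38 ± 0.08) and PTGES3 (0.36 ± 0.07) rose. Of 3 tested receptors PTGFR, the receptor of prostaglandin F2 alpha, fell (-1.38 ± 0.24). Over 10 tested genes 4 fell, 2 rose and the median was -0.12.

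Interferon-stimulated genes were lower for 30 of 57 tested members and higher for 4, with a median of -0.48. Type I and type III interferon genes themselves (4 listed) had too few counts to be tested. Promoter stretches of the named genes that held a match to TTCNNTTT, the core shared by interferon response elements, or to its reverse complement AAANNGAA, are shown with matches in capitals (RefSeq, GRCh38.p14).
RSAD2 (chr2:6865777-6865866, plus strand): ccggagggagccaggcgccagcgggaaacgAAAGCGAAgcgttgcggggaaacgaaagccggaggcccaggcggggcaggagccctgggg
IFIH1 (chr2:162318685-162318878, minus strand): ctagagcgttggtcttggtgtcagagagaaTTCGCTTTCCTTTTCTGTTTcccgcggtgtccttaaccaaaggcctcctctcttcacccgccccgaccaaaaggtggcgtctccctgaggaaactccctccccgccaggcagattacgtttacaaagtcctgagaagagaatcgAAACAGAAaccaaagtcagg
The RSAD2 match begins 78 bases before the start, and those of IFIH1 begin 164, 158, 152 and 20 bases before it, where the first 3 overlap. Such a match was in 35 of 53 windows of the list (66%) and in 16.9% of all windows.

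IFIT2, an antiviral effector, had 76.3 and 78.3 CPM in the control libraries and 18.6 and 15.3 CPM in the shTAF7 libraries. The shTAF7 values were well below both controls (log2 fold change -2.19 ± 0.09, edgeR adjusted p = 2.1e-24). OASL (24.7 and 25 CPM against 7.82 and 8.55 CPM) and IFIH1, which encodes the RNA sensor MDA5 (14.5 and 16.3 CPM against 6.08 and 6.71 CPM), fell likewise (-1.60 ± 0.13 and -1.27 ± 0.14). The antiviral genes MX2 (-1.50 ± 0.28) and IFIT1 (-1.07 ± 0.09) and the ubiquitin-like ISG15 (-0.87 ± 0.10) were also lower. RSAD2, which encodes viperin, was low throughout (2.86 and 1.89 CPM in the control libraries and 0 and 0.317 CPM in the shTAF7 libraries). By role, 21 of 35 effectors fell and 3 rose, 3 of 6 sensors fell, and 4 of 11 regulators fell and 1 rose. The regulator IRF1 fell (-0.79 ± 0.12). SOCS3, a feedback inhibitor of cytokine signalling, rose (0.57 ± 0.08). In the test between lines, 34 of the 57 genes had a lower fold change in LM2 and 2 a higher one.

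MHC class I genes, which interferon and NF-kB both induce, were lower for 11 of 20 tested members, and 0 rose. HLA-B had 91.9 and 91.8 CPM in the control libraries and 35.3 and 42.1 CPM in the shTAF7 libraries, with no overlap (log2 fold change -1.25 ± 0.08, edgeR adjusted p = 1.3e-17). HLA-C was lower (-0.86 ± 0.08). Reads of HLA genes can be shared among them. TAP1, the peptide transporter (-0.80 ± 0.13), TAPBP, which bridges it to class I molecules (-0.79 ± 0.10), and the immunoproteasome subunit PSMB9 (-0.88 ± 0.15) fell, whereas the light chain B2M was at -0.14 ± 0.07 and was not called.

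Genes of the ATF4 response were lower in the main, although ATF4 itself rose. Of 48 tested genes 33 were lower and 5 higher, with a median of -0.42. CHAC1, a glutathione-degrading target of ATF4, was the member among the named genes whose promoter window held a match to TGATGNAA or its reverse complement TTNCATCA, in capitals and 209 bases before the start (RefSeq, GRCh38.p14).
CHAC1 (chr15:40953232-40953321, plus strand): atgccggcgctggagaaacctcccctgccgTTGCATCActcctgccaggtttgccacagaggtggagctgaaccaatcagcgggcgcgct
With the 50 bases after the start included, such matches were in 16 of 61 windows of the list (26.2%) and in 2.11% of all windows. In the 250 bases before the start alone they were in 8 of 61 (13.1%) and in 1.78%. CTH, SESN2, DDIT3, STC2 and GDF15 had none in the 250 bases before the start, and the bases after it were not searched for single genes.

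ATF4 had 484 and 453 CPM in the control libraries and 548 and 604 CPM in the shTAF7 libraries. Both shTAF7 libraries were above both controls (log2 fold change 0.30 ± 0.07, edgeR adjusted p = 0.000534), and its relative ATF5 rose more (0.76 ± 0.11). The other 11 of 13 tested transcription factors and stress regulators of the list fell. DDIT3, which encodes the stress factor CHOP, had 25.4 and 24.6 CPM in the control libraries and 8.26 and 8.66 CPM in the shTAF7 libraries (log2 fold change -1.56 ± 0.13, edgeR adjusted p = 2.8e-14). SESN2, an inhibitor of mTORC1, had 61.3 and 68.4 CPM in the control libraries and 19.5 and 20.1 CPM in the shTAF7 libraries (log2 fold change -1.71 ± 0.09, edgeR adjusted p = 5.4e-20). For CHAC1 the values were 31.2 and 29.5 CPM against 9.94 and 13.3 CPM (-1.38 ± 0.12). The shTAF7 libraries were below the controls for each of the 3. TRIB3 (-1.29 ± 0.08), ATF3 (-1.20 ± 0.10) and DDIT4 (-1.11 ± 0.07) were also lower. CTH, the enzyme that makes cysteine from cystathionine, had 67.9 and 65.3 CPM in the control libraries and 13.9 and 13.1 CPM in the shTAF7 libraries, the largest decrease of the list (log2 fold change -2.30 ± 0.10, edgeR adjusted p = 1.5e-24). STC2, a secreted glycoprotein, came next (-2.13 ± 0.28). Of 10 amino acid transporters 7 fell and 0 rose, such as SLC1A4 (-1.32 ± 0.13), SLC6A9 (-1.32 ± 0.15) and the cystine carrier SLC7A11 (-0.40 ± 0.07). Of 14 tRNA synthetases 9 fell, and HARS1 rose (0.49 ± 0.07). Of 11 enzymes of amino acid synthesis 6 fell and 2 rose, with PSPH, of serine synthesis, at -1.22 ± 0.08. In 30 of the 48 the fold change was lower in LM2 than in MDA-MB-231 and in 6 higher.

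Of 19 genes of the unfolded protein response of the endoplasmic reticulum 8 fell and 3 rose, with a median of -0.17. ERN1, which encodes the sensor IRE1 (-1.53 ± 0.11), XBP1, the factor it activates (-1.07 ± 0.07), and HERPUD1 (-0.61 ± 0.07) fell, and the main chaperone HSPA5 was lower by a small amount (-0.23 ± 0.07).

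Genes of cholesterol synthesis formed the list with the highest median. Of 37 tested genes 27 rose, 10 were not called and 0 fell, with a median of 0.50 that was 0.37 with library totals. Among all genes, 27.4% rose at 10 to 100 CPM and 52.6% at 100 CPM and above. IDI1, which makes the isoprenoid building block, had 66.5 and 60.7 CPM in the control libraries and 138 and 139 CPM in the shTAF7 libraries. The shTAF7 libraries held more than both controls (log2 fold change 1.12 ± 0.07, edgeR adjusted p = 1.1e-17). HMGCS1, the synthase at the head of the mevalonate pathway, had 40.8 and 39.5 CPM in the control libraries and 87.4 and 79.1 CPM in the shTAF7 libraries (log2 fold change 1.05 ± 0.08, edgeR adjusted p = 2.1e-15). MVK, mevalonate kinase, was close (0.92 ± 0.10). In all 18 of 21 synthesis enzymes rose. INSIG1, which retains SREBP in the endoplasmic reticulum and is its target, had 79.7 and 74.1 CPM in the control libraries and 153 and 159 CPM in the shTAF7 libraries (1.02 ± 0.07). Of the SREBP genes themselves, SREBF1 was at -0.16 ± 0.09 and was not called, and SREBF2 (0.24 ± 0.08) was not called without control replicate 2 or shTAF7 replicate 3 (0.10, edgeR adjusted p = 0.43 without control replicate 2, and 0.20, edgeR adjusted p = 0.0866 without shTAF7 replicate 3). Fatty acid synthesis genes were higher for 5 of 7, with FASN at 0.41 ± 0.08 and the desaturase SCD at 0.67 ± 0.07. In sum the list went from 2741 and 2878 to 3867 and 3898 CPM. In 25 of the 37 the fold change was higher in LM2 than in MDA-MB-231 and in 3 lower.

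DNA replication genes rose for 47 of 57 tested members, and 0 fell, with a median of 0.41 (0.28 with library totals). By level, 27.4% of all genes rose at 10 to 100 CPM and 52.6% at 100 CPM and above. Stretches of the promoters of the named genes in which a match to TTTNNCGC or its reverse complement GCGNNAAA, the E2F type, was found are shown with the match in capitals (RefSeq, GRCh38.p14).
UHRF1 (chr19:4909359-4909500, plus strand): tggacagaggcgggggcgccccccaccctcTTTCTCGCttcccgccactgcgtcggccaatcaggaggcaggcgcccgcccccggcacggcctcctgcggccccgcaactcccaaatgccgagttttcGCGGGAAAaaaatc
PCNA (chr20:5126623-5126711, minus strand): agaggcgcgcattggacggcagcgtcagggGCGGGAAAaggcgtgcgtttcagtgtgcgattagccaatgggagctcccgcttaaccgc
GINS2 (chr16:85688955-85689015, minus strand): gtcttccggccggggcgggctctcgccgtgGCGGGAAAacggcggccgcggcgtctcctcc
GMNN (chr6:24775303-24775392, plus strand): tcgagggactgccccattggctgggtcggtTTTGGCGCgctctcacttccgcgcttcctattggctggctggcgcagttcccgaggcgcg
The matches begin 112 and 14 bases before the start in UHRF1, 59 in PCNA, 31 in GINS2 and 80 in GMNN. They were in 29 of 64 windows of the list (45.3%), in 9.49% of all windows, in 11% of windows of genes called higher and in 5.84% of those of genes that fell at least 2-fold.

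MCM5, a subunit of the replicative helicase, had 97.6 and 102 CPM in the control libraries and 189 and 208 CPM in the shTAF7 libraries. Both shTAF7 libraries were above both controls (log2 fold change 0.99 ± 0.07, edgeR adjusted p = 4.0e-16). UHRF1, which carries DNA methylation through replication, had 178 and 184 CPM in the control libraries and 308 and 329.7 CPM in the shTAF7 libraries (0.81 ± 0.07), and PCNA, the sliding clamp, had 187 and 162 CPM in the control libraries and 283 and 304 CPM in the shTAF7 libraries (0.75 ± 0.07). The same held for GINS2 of the helicase (37.2 and 37.5 CPM against 59 and 62.2 CPM) and for GMNN, which blocks repeated licensing (77 and 79.6 CPM against 119 and 135 CPM), with no overlap between groups (0.70 ± 0.08 and 0.70 ± 0.07). By role 10 of 12 helicase subunits, 17 of 19 polymerase and fork factors, 6 of 6 enzymes of nucleotide supply and 5 of 8 licensing factors rose. The summed level went from 5884 and 5966 to 7929 and 8163 CPM. In 41 of the 57 the fold change was higher in LM2 than in MDA-MB-231, and in 0 lower.

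**Figure D4:**
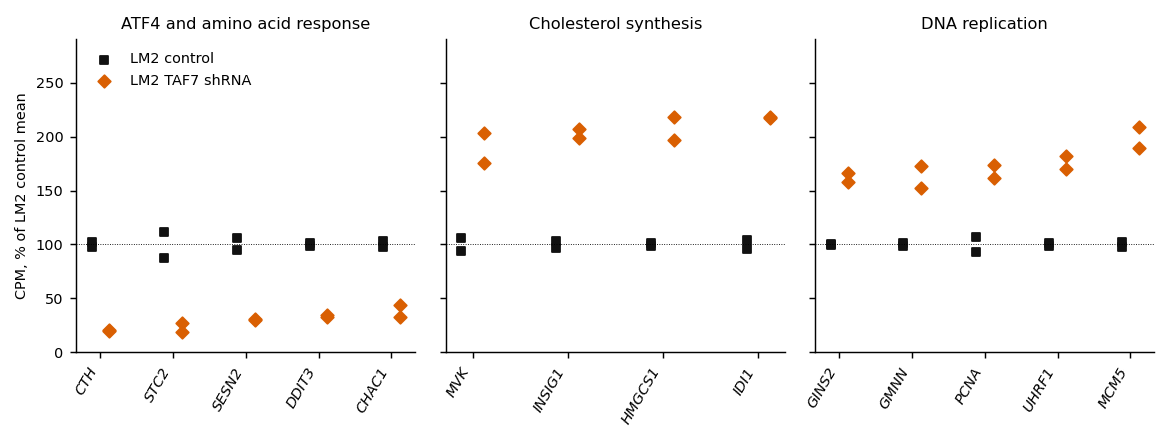
Level of 14 named genes from 3 lists in the 4 LM2 libraries as a percentage of the mean of the 2 control libraries (dotted line at 100). The shTAF7 libraries (orange diamonds) lie below the control libraries (black squares) for the ATF4 response and above them for cholesterol synthesis and DNA replication, with no overlap in the 14 genes drawn.

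Mitotic genes had a smaller median. Of 42 tested G2/M genes 29 rose and 1 fell, with a median of 0.25 (0.12 with library totals). Among all genes, 27.4% rose at 10 to 100 CPM and 52.6% at 100 CPM and above. KIF20A, a mitotic kinesin, had 198 and 189 CPM in the control libraries and 291 and 318 CPM in the shTAF7 libraries (log2 fold change 0.66 ± 0.07, edgeR adjusted p = 5.1e-11). ANLN (0.63 ± 0.07), AURKB (0.44 ± 0.07) and CDC20, an activator of the anaphase-promoting complex (0.44 ± 0.07), rose, and so did the proliferation marker MKI67 (0.30 ± 0.08). The exception was HMMR, which encodes a hyaluronan-binding spindle protein, with 30.3 and 27.3 CPM in the control libraries and 17.3 and 19.3 CPM in the shTAF7 libraries (-0.65 ± 0.10). Genes that set the entry into S phase were mixed, with 5 of 13 higher and 2 lower and a median of 0.04 that was -0.09 with library totals. CCND1, cyclin D1, was higher (0.33 ± 0.07). Of the inhibitors, CDKN1A, which encodes p21, had 76.7 and 81.6 CPM in the control libraries and 46.6 and 51 CPM in the shTAF7 libraries and fell (log2 fold change -0.70 ± 0.08, edgeR adjusted p = 8.6e-10), as did CDKN1C (-0.67 ± 0.19), while CDKN2C (0.84 ± 0.08) and CDKN2D (0.60 ± 0.10) rose. Targets of p53 had no common direction, with 5 of 18 higher, 4 lower and a median of -0.01, beside 21.8% and 19.4% of all genes tested. MDA-MB-231 is known to carry mutant p53. GADD45A, a stress gene that ATF4 also induces, had 256 and 236 CPM in the control libraries and 98.1 and 107 CPM in the shTAF7 libraries (log2 fold change -1.26 ± 0.07, edgeR adjusted p = 6.8e-20), and the proapoptotic BBC3 fell (-0.88 ± 0.14), whereas FDXR rose (0.93 ± 0.13).

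Histone genes were lower for 7 of 13 tested, and 0 rose, with a median of -0.62. H2AC6 (-1.07 ± 0.16), H2BC12 (-0.62 ± 0.10) and H2BC21 (-1.34 ± 0.27) fell. Most replication-dependent histone mRNAs lack a poly(A) tail, and the way mRNA was enriched is not stated.

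Many highly expressed genes of growth rose by small amounts. Of all genes averaging 100 CPM or more, 52.6% were called higher, with a median of 0.19 (0.06 with library totals). What part of the rises below, or of those of cholesterol, replication and mitotic genes above, goes with level was not tested. Of 76 cytosolic ribosomal protein genes 65 rose and 0 fell, with a median of 0.33 (0.20 with library totals), the highest being RPL4 (0.52 ± 0.08), RPL38 (0.50 ± 0.07) and RPL18 (0.49 ± 0.08). Their sum was 64407 and 60819 CPM in the control and 72666 and 83923 CPM in shTAF7, and reads can be shared with pseudogenes. The difference between lines was called for 2 of the 76, and the median in MDA-MB-231 was 0.31, close to that in LM2. Of 28 ribosome biogenesis factors 16 rose and 1 fell (median 0.23, or 0.10 with library totals). The one that fell, DDX21, a nucleolar helicase (-0.22 ± 0.08), was not called without control replicate 3 or shTAF7 replicate 3 (-0.09, edgeR adjusted p = 0.452 without control replicate 3, and -0.15, edgeR adjusted p = 0.174 without shTAF7 replicate 3). Among those that rose were the processing factor BOP1 at 0.56 ± 0.07 and NOP16 at 0.51 ± 0.08. NPM1, the abundant nucleolar protein nucleophosmin, went from 4523 and 4106 CPM to 5327 and 5629 CPM (0.34 ± 0.08).

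Of 39 nuclear genes for the respiratory chain 31 rose and 0 fell (median 0.32, or 0.19 with library totals), including all 7 of complex IV and all 7 of the ATP synthase, with COX8A at 0.74 ± 0.11 and cytochrome c1, CYC1, at 0.58 ± 0.07. Splicing factors rose for 19 of 26 and fell for 0 (median 0.34, or 0.21 with library totals). SRSF2, a serine and arginine rich splicing factor, had 226 and 210.5 CPM in the control libraries and 357 and 365 CPM in the shTAF7 libraries (log2 fold change 0.73 ± 0.07, edgeR adjusted p = 2.7e-12), and SRSF3 (0.58 ± 0.07), HNRNPL (0.51 ± 0.07) and PTBP1 (0.51 ± 0.07) were higher. Of 12 RNA polymerase II subunits 10 rose and 0 fell (median 0.38, or 0.25 with library totals), led by POLR2F (0.70 ± 0.08) and POLR2L (0.67 ± 0.07). Over all 32 tested general transcription factors, kinases and polymerase subunits 16 rose and 4 fell (median 0.20, or 0.07 with library totals), among them the helicase ERCC3 of TFIIH (0.45 ± 0.07) and the elongation kinase CDK9 (0.42 ± 0.08), both higher. Heat shock proteins rose for 10 of 15 and fell for 0 (median 0.35, or 0.22 with library totals). HSPA8, the constitutive HSP70, had 1515 and 1565 CPM in the control libraries and 2763 and 2579 CPM in the shTAF7 libraries (log2 fold change 0.79 ± 0.09, edgeR adjusted p = 6.9e-10), followed by the inducible HSPA1B (0.54 ± 0.09), its cofactor DNAJA1 (0.51 ± 0.07) and HSP90AB1 (0.47 ± 0.08). HSPA1A, a near-identical copy of HSPA1B, was at -0.43 ± 0.38 and was not called. Reads of these copies can be shared, so the split between them is uncertain.

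Among the 15 common reference genes 8 rose and 0 fell, with a median of 0.30 that was 0.17 with library totals. That count is near the share of 52.6% called higher among all genes at 100 CPM and above. ACTB, which encodes beta-actin and is often used to normalise, had 5078 and 4913 CPM in the control libraries and 7758 and 8560 CPM in the shTAF7 libraries (log2 fold change 0.71 ± 0.09, edgeR adjusted p = 4.1e-09). Both shTAF7 libraries were above both controls, and the same was seen for its relative ACTG1 (2706 and 2830 CPM against 4188 and 4534 CPM) and for ANXA2, a membrane-binding protein (2146 and 2073 CPM against 3023 and 3371 CPM). GAPDH was higher (0.34 ± 0.08), as were HPRT1 (0.59 ± 0.07) and TUBB (0.51 ± 0.07).

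The 13 mRNAs made in mitochondria had no common direction, with 4 higher, 2 lower and a median of 0.08 that was -0.05 with library totals. Their sum was 52243 and 50308 CPM in the control and 55237 and 45747 CPM in shTAF7, so that the groups overlapped. MT-ND2, of complex I, had 5011 and 4886 CPM in the control libraries and 7149 and 5977 CPM in the shTAF7 libraries (log2 fold change 0.41 ± 0.11, edgeR adjusted p = 0.0015), and MT-ND3 was higher too (0.72 ± 0.08). MT-CO1, the catalytic subunit of cytochrome oxidase, went the other way with 14382 and 13906 CPM in the control libraries and 11456 and 9309 CPM in the shTAF7 libraries (log2 fold change -0.45 ± 0.11, edgeR adjusted p = 0.000556), and so did the ribosomal RNA MT-RNR2 with 5031 and 4800 CPM against 3741 and 2956 CPM (-0.55 ± 0.10). The 2 shTAF7 libraries differed from each other in the share of counts from mitochondrial genes, at 5.68% and 4.57%, against 5.95% and 5.77% in the control.

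MYC, which drives ribosome production, had 288 and 288 CPM in the control libraries and 192 and 198 CPM in the shTAF7 libraries. It fell (log2 fold change -0.56 ± 0.07, edgeR adjusted p = 1.6e-09). The 16 of 28 ribosome biogenesis factors that rose are near the 52.6% called higher among all genes at 100 CPM and above. Of the MYC network 3 of 11 rose and 4 fell: the antagonists MXD1 (-1.40 ± 0.12) and MXI1 (-0.73 ± 0.10) fell and MXD3 (0.77 ± 0.13) and MXD4 (0.57 ± 0.08) rose. Immediate early genes were lower for 12 of 23 and higher for 6 (median -0.25). EGR1, a zinc finger factor induced by growth signals, had 368 and 393 CPM in the control libraries and 177 and 178 CPM in the shTAF7 libraries (log2 fold change -1.10 ± 0.07, edgeR adjusted p = 2.7e-18), and IER3 had 142 and 146 CPM in the control libraries and 54.7 and 62.6 CPM in the shTAF7 libraries (-1.30 ± 0.07). The groups did not overlap for either gene. KLF4 (-1.33 ± 0.08) and JUN (-0.66 ± 0.07) were lower. The orphan nuclear receptor NR4A1 stood against them with 3.41 and 3.9 CPM in the control libraries and 13.4 and 11.2 CPM in the shTAF7 libraries, higher in both shTAF7 libraries (log2 fold change 1.75 ± 0.18, edgeR adjusted p = 2.6e-11).

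Of 6 tested EGFR ligands 4 fell and 0 rose. EREG, which encodes epiregulin, had 157 and 161 CPM in the control libraries and 84.3 and 75.2 CPM in the shTAF7 libraries (-0.99 ± 0.08). HBEGF had 196 and 196 CPM against 104 and 104 CPM (-0.92 ± 0.07), and AREG, which encodes amphiregulin, had 14.1 and 11.3 CPM against 3.8 and 4.28 CPM (-1.65 ± 0.15). Both shTAF7 libraries were lower for each, and TGFA was at -0.43 ± 0.09. EGFR itself fell slightly (-0.24 ± 0.07). Feedback genes of the same pathway were lower for 7 of 15 and higher for 2, such as PHLDA1 (-0.79 ± 0.07) and DUSP5 (-0.53 ± 0.07). ERRFI1, an inhibitor of EGFR kinase that is no member of the list but was among the 6 largest losses in CPM, went from 1169 and 1183 CPM to 509.9 and 494 CPM (log2 fold change -1.23 ± 0.07, edgeR adjusted p = 1.6e-19).

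The TGF-beta and BMP pathway had members in both directions, with 10 of 41 higher, 13 lower and a median of 0.05 that was -0.08 with library totals. TGFB2, a ligand, had 73.3 and 73.2 CPM in the control libraries and 31.2 and 30.7 CPM in the shTAF7 libraries (log2 fold change -1.24 ± 0.08, edgeR adjusted p = 1.8e-17), and INHBA, which encodes the activin A chain, had 34.2 and 34.5 CPM in the control libraries and 6.87 and 9.19 CPM in the shTAF7 libraries (-2.09 ± 0.13). Both ligands were lower in both shTAF7 libraries, and the receptor TGFBR2 was lower as well (-0.70 ± 0.07). The BMP antagonist NOG had 24.2 and 25.5 CPM in the control libraries and 47.6 and 52.8 CPM in the shTAF7 libraries and rose (log2 fold change 1.02 ± 0.10, edgeR adjusted p = 6.5e-12), as did the BMP targets ID1 (0.64 ± 0.07) and ID3 (0.64 ± 0.08). Targets of YAP and TEAD had 5 of 27 higher, 6 lower and a median of -0.02, near the 21.8% and 19.4% of all genes tested. The TEAD cofactor VGLL3 (-1.23 ± 0.15) and AJUBA (-0.59 ± 0.07) were among the lower ones. In MDA-MB-231 the median of the list was -0.33, and 16 of the 27 had a higher fold change in LM2.

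Genes of the published lung metastasis signature, defined on lines such as LM2, were lower for 10 of 21 tested and higher for 5 (median -0.16). VCAM1, an adhesion molecule for leukocytes, had 9.3 and 7.97 CPM in the control libraries and 1 and 1 CPM in the shTAF7 libraries (log2 fold change -3.10 ± 0.27, edgeR adjusted p = 5.7e-13). PTGS2, CXCL1, EREG and MMP2 (-1.45 ± 0.29) were also among those that fell. MMP1, a collagenase of the signature, had 252 and 240.4 CPM in the control libraries and 496 and 519 CPM in the shTAF7 libraries, with both shTAF7 libraries above both controls (log2 fold change 1.04 ± 0.07, edgeR adjusted p = 1.7e-16). PLAAT4, a phospholipase induced by retinoids and interferon, fell (-1.84 ± 0.38).

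More matrix genes were lower than higher. Of 33 tested proteases and inhibitors 17 fell and 6 rose (median -0.36). The secreted proteases ADAMTS9 (-2.15 ± 0.20) and ADAMTS6 (-1.37 ± 0.10) fell. PLAU, the urokinase that activates plasminogen, had 260.5 and 249 CPM in the control libraries and 118 and 133 CPM in the shTAF7 libraries (-1.02 ± 0.07), and its inhibitor SERPINB2 fell likewise (-1.08 ± 0.08). Of 14 collagens 9 fell and 3 rose, and of 8 laminins 6 fell and 0 rose. COL7A1, the anchoring fibril collagen, had 30.9 and 30.4 CPM in the control libraries and 10.3 and 7.97 CPM in the shTAF7 libraries (log2 fold change -1.75 ± 0.13, edgeR adjusted p = 2.0e-15). COL6A1, of the beaded filaments, had 136 and 139 CPM against 62.1 and 68.4 CPM (-1.07 ± 0.07). The groups did not overlap for either gene. LAMA4 (-1.55 ± 0.27) and COL5A1 (-0.94 ± 0.09) were lower, and the transmembrane COL13A1 was higher (0.87 ± 0.07). Of 13 integrins 7 fell and 1 rose (median -0.37). ITGA1, which binds collagen, had 54.3 and 50.3 CPM in the control libraries and 22.2 and 21.6 CPM in the shTAF7 libraries (-1.26 ± 0.10), and ITGB2 (-1.03 ± 0.13), ITGB3 (-0.94 ± 0.18) and ITGA5, of the fibronectin receptor (-0.74 ± 0.07), fell as well, while ITGB5 rose (0.41 ± 0.07). Of 3 tested fibroblast markers 2 were lower too, and their part in these lists was not tested.

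Cadherins and markers of epithelial and mesenchymal state showed no common direction. PCDH7, a protocadherin linked to brain metastasis of breast cancer, had 3.14 and 3.18 CPM in the control libraries and 13.1 and 12.3 CPM in the shTAF7 libraries. It was the highest of the named genes by fold (log2 fold change 2.01 ± 0.16, edgeR adjusted p = 4.7e-14), whereas PCDH1 fell (-1.74 ± 0.38). Of 12 tested cadherins and protocadherins 3 rose and 4 fell (median -0.02), beside 21.8% and 19.4% of all genes tested. The cadherin genes CDH1 and CDH2 had too few counts to be tested. Of 15 tested factors and markers of the epithelial to mesenchymal transition 2 rose and 6 fell (median -0.17). VIM, the mesenchymal filament protein, rose (1498 and 1400 CPM against 2103 and 2354 CPM, 0.62 ± 0.08), while the mesenchymal factor ZEB2 (-0.65 ± 0.10), the tight junction gene CLDN1 (11.6 and 10.9 CPM against 1.45 and 1.58 CPM, -2.89 ± 0.21) and the epithelial splicing regulator ESRP1 (-1.36 ± 0.22) fell.

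Hypoxia and glycolysis genes split by role. Glycolysis genes rose for 15 of 19, beside 52.6% of all genes at 100 CPM and above, and fell for 1. Lactate dehydrogenase LDHA was at 0.47 ± 0.08. The one that fell, the glucose transporter gene SLC2A3 (-0.22 ± 0.08), was not called without control replicate 3 or shTAF7 replicate 2 (-0.17, edgeR adjusted p = 0.193 without control replicate 3, and -0.17, edgeR adjusted p = 0.162 without shTAF7 replicate 2). ALDOA, the aldolase of glycolysis in most tissues, had 26 and 32 counts in the control libraries and 37 and 49 in the shTAF7 libraries, and was not called (0.53 ± 0.32). POLR2I, U2AF1 and ASNS, members of other lists, likewise had under 100 counts in each LM2 library. How reads in overlapping gene models were counted is not given in the sources used here, so the levels of such genes are uncertain, and its part was not tested. Of 20 genes of the hypoxia response 8 rose and 6 fell. VEGFA, the angiogenic growth factor, had 340.0 and 338 CPM in the control libraries and 101 and 97.3 CPM in the shTAF7 libraries and fell (log2 fold change -1.78 ± 0.07, edgeR adjusted p = 3.2e-26), and EPAS1, which encodes HIF-2 alpha, had 87.8 and 101 CPM in the control libraries and 24.8 and 21.3 CPM in the shTAF7 libraries (log2 fold change -2.04 ± 0.09, edgeR adjusted p = 2.1e-24). Both were far below the controls in both shTAF7 libraries. CA9, a carbonic anhydrase induced by HIF-1 (1.03 ± 0.26), and BNIP3, a mitophagy receptor (0.61 ± 0.07), rose. Among NRF2 targets 8 of 24 rose and 7 fell (median -0.01). NFE2L2, which encodes NRF2, fell (-0.71 ± 0.07), and so did ferritin heavy chain FTH1 (275 and 331 CPM against 142 and 181 CPM, -0.91 ± 0.08), but thioredoxin TXN (0.57 ± 0.07) and PGD of the pentose phosphate pathway (0.54 ± 0.07) rose.

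Of the BCL2 family 4 of 16 rose and 5 fell, beside 21.8% and 19.4% of all genes tested. BMF, a proapoptotic member, was the lowest (-1.58 ± 0.31), BCL2A1, a prosurvival NF-kB target, fell (-0.58 ± 0.11), and BCL2 (0.56 ± 0.14) and BOK (0.54 ± 0.10) rose. In the IGF pathway the median was 0.09 (-0.04 with library totals), and 2 of 12 rose and 2 fell, beside the same shares of all genes. IGFBP3, which binds IGF in serum, had 86.6 and 85.6 CPM in the control libraries and 212 and 232 CPM in the shTAF7 libraries (log2 fold change 1.37 ± 0.07, edgeR adjusted p = 2.8e-21). IGFBP1 was higher (0.78 ± 0.10), and the ligand IGF2 (-1.71 ± 0.38) and the receptor IGF2R that clears it (-0.64 ± 0.08) fell.

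Beyond the lists, several of the 12 highest genes by fold were these. NKX2-1, a transcription factor of lung and thyroid epithelium, had 1.32 and 1.45 CPM in the control libraries and 4.19 and 5.86 CPM in the shTAF7 libraries (log2 fold change 1.86 ± 0.22, edgeR adjusted p = 3.5e-09). APLN, which encodes the peptide apelin, had 5.56 and 4.9 CPM in the control libraries and 14.8 and 13.8 CPM in the shTAF7 libraries (1.45 ± 0.16). KRT19, a luminal keratin, had 31.9 and 32.1 CPM in the control libraries and 74 and 84.9 CPM in the shTAF7 libraries (log2 fold change 1.31 ± 0.08, edgeR adjusted p = 3.1e-18). The groups did not overlap for any of the 3, which the choice of these genes required. NKX2-1 is also a marker of lung epithelium, whose 2 tested markers of 6 summed to 4.73 and 5.01 CPM in the control and 7.7 and 11.3 CPM in shTAF7. The parental control libraries had 32.8 and 30.4 CPM of NKX2-1. SNCAIP (1.43 ± 0.16), TMEM108 (1.33 ± 0.19), TNFSF4, which encodes OX40 ligand (1.28 ± 0.16), RASD1 (1.28 ± 0.09) and NMRAL1 (1.26 ± 0.19) were also among the 12 highest. At the low end stood INHBE, an activin chain gene induced by ER stress, with 5.23 and 4.79 CPM in the control libraries and 0.167 and 0.317 CPM in the shTAF7 libraries (-4.32 ± 0.44). EHF, an epithelial ETS factor, had 8.92 and 6.24 CPM against 0.447 and 0.37 CPM (-4.20 ± 0.36), and IGFN1 had 26.6 and 26.6 CPM against 2.18 and 2.22 CPM (-3.60 ± 0.17). No overlap between the groups was part of the choice of these genes too. In counts the largest losses beside those already given included NAMPT, an enzyme of NAD synthesis, with 931 and 885 CPM in the control libraries and 539.8 and 532 CPM in the shTAF7 libraries (-0.76 ± 0.07).

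The difference of the knockdown effect between LM2 and MDA-MB-231 was tested in the same fit. TAF7 itself fell less in LM2 than in MDA-MB-231, with a difference of 0.34 ± 0.09 (edgeR adjusted p = 0.00544), though the call was lost without MDA-MB-231 control replicate 3 (0.33, edgeR adjusted p = 0.0513) and with library totals (0.23, edgeR adjusted p = 0.0538). Of the 12 lowest genes in LM2 several were on the other side of 0 in MDA-MB-231, such as IL1A (1.54 ± 0.26), IL6 (1.15 ± 0.38) and C3 (1.52 ± 0.61). GDF15 was at -0.48 ± 0.13 in MDA-MB-231, and its difference between the lines was -4.71 ± 0.23 (edgeR adjusted p = 4.1e-21). Among the 12 highest, PCDH7 was at -0.41 ± 0.14 in MDA-MB-231, and the difference was 2.42 ± 0.22 (edgeR adjusted p = 2.9e-12). RASD1 was at 1.18 ± 0.15, with a difference of 0.10 ± 0.19 (edgeR adjusted p = 0.751). These genes were picked for their size in LM2, which enters the difference, so the values describe them. A group of at most 3 counts in the parental libraries left SNCAIP, VCAM1, EHF and SAA2 without a usable value there.

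**Figure D5:**
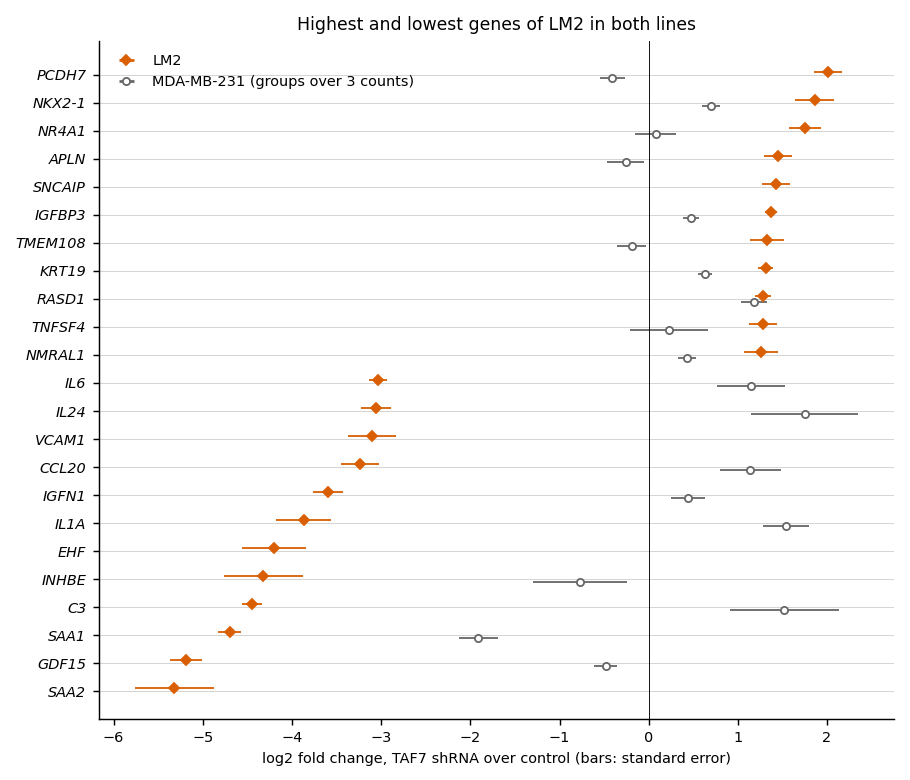
Log2 fold change ± SE of shTAF7 over control for 11 of the 12 highest and the 12 lowest genes of LM2, in LM2 (orange diamonds) and in MDA-MB-231 (open circles, drawn where every group had over 3 counts). RASD1 is near the same value in both lines, while IL6, IL24, CCL20, IL1A, IGFN1 and C3 lie on opposite sides of 0.

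Core promoter letters were counted by direction of change. The TATA box TATAAA, on either strand, was in 6.57% of all windows, in 5.35% of those of genes called higher, in 8.81% of genes called lower and in 11.5% of genes that fell at least 2-fold. In the cytokine list it was in 6 of 20 windows, or 30%. Median GC content was 59.7% in windows of genes that fell at least 2-fold and 64.7% in all windows. Of the tested genes, 70.3% had a window in the table, and no test was made of these shares.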

How the data were processed

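The values used were the read counts per gene that the authors deposited for the 8 libraries. The FPKM values the authors deposited for the same genes served for levels per length and as an alternative scale. Counts and FPKM were per sample, with no pooling of libraries. STAR 2.7.10a and the build hg19 appear in the submitters' processing notes, and the counting tool, strand setting and annotation were not given in the sources used here. Genes shared by symbol with another identifier were kept apart by identifier, and gene types came from GENCODE 29, which held 94.8% of the identifiers.

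Groups were taken from the sample titles. Genes were filtered with filterByExpr, scaled by TMM and fitted with edgeR 4.0.16 (R 4.3.3) by the quasi-likelihood test over all 8 libraries with 1 mean per group, which leaves 4 residual degrees of freedom. The contrasts were shTAF7 against control in LM2, the same in MDA-MB-231, and their difference. P-values were adjusted by the Benjamini-Hochberg method over 15923 genes with a threshold of 0.05, and SE is that of the fit. The script was tested on simulated data. CPM are TMM-scaled counts, and no batch was named in the labels. Alternatives used DESeq2 1.42.0, limma 3.58.1 on log2(FPKM + 1) and log2(FPKM + 0.1), other scalings and filters, and fits without each library.

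Of the genes left out of the test, 28671 of 45629 had no count in any library, and all of them together took 0.15% of control counts. Named were TAF7 and the 12 highest and 12 lowest called genes by fold. The highest and lowest genes had at least 5 CPM and no overlap and were called without each LM2 library. Also named were the 6 largest gains and losses in CPM among called genes with no overlap. Up to 5 called members per list with at least 2 CPM were added. For genes picked by fold or by CPM change, the lack of overlap was thus part of the choice. Some genes that the rule names are not reported here. Further members appear by their values to account for a role. The members of the comparison and the 39 gene lists and 6 marker lists were chosen with earlier results of these data known. Promoter windows came from RefSeq (GRCh38.p14), and motifs were searched on both strands.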

Additional observations from a re-analysis of the deposited data

Results flagged for a closer look

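Of the 24 genes picked as highest or lowest in LM2, SNCAIP, VCAM1, EHF and SAA2 were left out here for a group of at most 3 counts. Of the others, 17 differed between LM2 and MDA-MB-231 in the effect of the TAF7 hairpin, as did TAF7, by edgeR's test of the difference itself. These genes were picked for their size in LM2, which enters the difference, so a larger value in LM2 was built into the choice. Values are the log2 fold change in LM2 minus that in MDA-MB-231, ± SE, with n = 2 libraries per group and the edgeR adjusted p over all genes tested.

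TAF7 fell by less in LM2 than in MDA-MB-231, with a difference of 0.34 ± 0.09 (edgeR adjusted p = 0.00544), which was not called without MDA-MB-231 control replicate 3 (0.33, edgeR adjusted p = 0.0513) or with library totals (0.23, edgeR adjusted p = 0.0538). Of the genes that rose in LM2, PCDH7 had a difference of 2.42 ± 0.22 (edgeR adjusted p = 2.9e-12), with -0.41 ± 0.14 in MDA-MB-231. APLN differed by 1.71 ± 0.26 (edgeR adjusted p = 1.6e-06), NR4A1 by 1.67 ± 0.29 (edgeR adjusted p = 1.8e-05) and TMEM108 by 1.51 ± 0.25 (edgeR adjusted p = 4.9e-06), and these 3 were at -0.26, 0.08 and -0.19 in MDA-MB-231. NKX2-1 differed by 1.16 ± 0.25 (edgeR adjusted p = 0.000405), IGFBP3 by 0.90 ± 0.11 (edgeR adjusted p = 1.7e-08), NMRAL1 by 0.83 ± 0.22 (edgeR adjusted p = 0.00395) and KRT19 by 0.69 ± 0.11 (edgeR adjusted p = 6.1e-06). These 4 were above 0 in MDA-MB-231 too, at 0.70, 0.47, 0.43 and 0.63, and NMRAL1 was not called without LM2 control replicate 2 (0.67, edgeR adjusted p = 0.061). With limma on log2(FPKM + 1) the differences of NKX2-1 (0.15, limma adjusted p = 0.512) and NMRAL1 (0.22, limma adjusted p = 0.287) were not called, nor was NMRAL1 on log2(FPKM + 0.1) (0.63, limma adjusted p = 0.0541) or TMEM108 on log2(FPKM + 1) with no filter (0.54, limma adjusted p = 0.0649).

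Of the genes that fell in LM2, GDF15 had a difference of -4.71 ± 0.23 (edgeR adjusted p = 4.1e-21), SAA1 of -2.78 ± 0.31 (edgeR adjusted p = 1.4e-09) and INHBE of -3.55 ± 0.77 (edgeR adjusted p = 0.000429). They were below 0 in MDA-MB-231 as well, at -0.48, -1.91 and -0.77, and INHBE was not called without MDA-MB-231 shTAF7 replicate 2 (-1.94, edgeR adjusted p = 0.257). C3 differed by -5.97 ± 0.64 (edgeR adjusted p = 3.7e-10), IL1A by -5.40 ± 0.40 (edgeR adjusted p = 8.9e-15), IL24 by -4.80 ± 0.62 (edgeR adjusted p = 3.7e-08), CCL20 by -4.38 ± 0.41 (edgeR adjusted p = 9.2e-12), IL6 by -4.19 ± 0.39 (edgeR adjusted p = 1.0e-11) and IGFN1 by -4.04 ± 0.26 (edgeR adjusted p = 2.4e-17). These 6 were above 0 in MDA-MB-231, at 1.52, 1.54, 1.75, 1.14, 1.15 and 0.44. In the parental control libraries IL24 had 0.156 and 0.168 CPM and IL6 0.52 and 0.448 CPM.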

How the results depend on the processing

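The number of genes called higher was 3478 and moved most with the scaling and the test. With library totals it was 2085, with limma on log2(FPKM + 1) 1850, on log2(FPKM + 0.1) 1780 and on log2(FPKM + 1) with no filter 1292, and 8 when the change itself had to exceed 2-fold (glmTreat). The 3092 genes called lower became 4664 with library totals and 136 with glmTreat. The 120 genes at least 2-fold higher became 74 with library totals and 18, 59 and 16 with the 3 limma settings in the same order, and the 844 at least 2-fold lower became 158, 434 and 145. Calls of a difference between the lines, 4113 in edgeR, were 2682, 2566 and 1754 with limma. TAF7 was at -0.56 with library totals, -0.55 or -0.56 with limma and -0.47 with a gene length offset, and at -0.43 it did not pass glmTreat (edgeR adjusted p = 1). The median over all genes tested is fixed by the scaling, and for the other settings the cause was not tested. DESeq2 called 2964 higher and 2248 lower. The uncalled difference of RASD1 between lines turned to -0.02 with library totals and with limma on log2(FPKM + 0.1) and ran from -0.21 to 0.39 with 1 library left out, below 0 without LM2 shTAF7 replicate 3 (-0.03) or MDA-MB-231 control replicate 3 (-0.21).

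Leaving out 1 library at a time gave 2827 to 3680 genes higher, 2077 to 3189 lower, 95 to 133 and 620 to 883 at least 2-fold higher and lower, 2933 to 4180 differences between lines and -0.44 to -0.40 for TAF7. For the LM2 change of the 208 named genes other than TAF7, 192 were called without each LM2 library in turn, 169 under every alternative that gave them a value other than glmTreat, which lost 154, and 0 reversed. With limma on log2(FPKM + 1) and log2(FPKM + 0.1) 15 of the 208 had no value. Whether replicate numbers 2 and 3 mark a shared culture or day is not stated. Deviations from the group means in same-numbered libraries had correlations of -0.14 to 0.0708 over 10751 genes, so no strong shared shift was seen. With the replicate block the counts were 3468 higher and 3086 lower, 118 and 832 at least 2-fold, 4128 differences between lines and -0.43 for TAF7, and no named gene lost its call. Depth limits genes near 1 count per library, at 0.0528 to 0.0558 CPM, and 2 libraries a group limit all error estimates.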
